A study of Mus musculus with 4 samples.

Results

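Single-base substitutions in 3′ untranslated regions (UTRs), other than A>G and T>C on the listed strand, were described in the transcripts of 2 mouse tumour cell lines. MBT2 is a bladder cancer line, grown here as a culture with the clone label 63 in RPMI-1640. LM8 is an osteosarcoma line grown in MEM with 24 mM HEPES. Both lines come from C3H/HeN mice, were kept in 10% serum and received no treatment, and each gave 2 poly(A) RNA libraries read in pairs of 75 bases. Nothing in the labels tells if the duplicates are separate cultures, and differences within a pair may be technical only. The substitutions were all records of 1 joint variant list per line whose annotated effect was a 3′ UTR and whose reference and alternative alleles were 1 base each. This gave 568 sites in 517 genes in MBT2 and 573 sites in 533 genes in LM8, together 1141 of the 11806 variants listed in either line. They made up 43.8% of the 1296 3′ UTR substitutions in MBT2 and 51.6% of the 1110 in LM8, the remainder being A>G or T>C. At 2383 of the 2391 3′ UTR substitutions of any kind that could be placed on a transcript (99.7%), the transcript carried the listed reference base at the annotated distance from the stop codon.

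The 3′ UTR follows the stop codon and is not translated. It holds the polyadenylation signal, AU-rich elements and microRNA sites, through which the length, stability and translation of a messenger RNA are set. A-to-I editing, which reads as A>G (T>C for a gene on the minus strand), is the common RNA editing of mammalian 3′ UTRs, and its classes were left out by the choice of sites. What remains are C>T and G>A changes, of which C>T on the RNA strand is also made by the C-to-U editing of APOBEC enzymes, and all transversions, which no known RNA editing enzyme of the mouse makes. A difference between RNA and reference genome can also be a mutation of the tumour, a base in which the C3H/HeN strain differs from the reference strain, or an error of reverse transcription, sequencing or alignment, and no matched normal DNA was sequenced. A variant called from RNA can only be seen in an expressed transcript, and its allele fraction (alternative reads over reference plus alternative reads) is weighted by the expression of each allele.

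The sites fell into 3 kinds by where the new base sat, and the sequences below show each kind. At read ends, the median distance of the new base from the end of the reads that carried it was 2 bases or less. At base runs, the site was not at read ends and lay directly beside 4 or more copies of the base it became, so that the change lengthened a run. All other sites with a matched transcript sequence were called mid-read, including those only 3 to 6 bases from the read end. Another 5 sites in MBT2 and 7 in LM8, with no such match and not at read ends, were left out of the 3 kinds. The 21 RNA-strand bases around each site are from the GENCODE M21 transcript, with the reference base at the site in capitals. The first 6 are the deepest G>A sites at read ends, 3 from MBT2 (P4hb, Flna and Hnrnpab) and 3 from LM8 (S100a6, Eif4a2 and Calr). They show the C or G that followed the changed base.
P4hb: caaggacactGgggctgaatg
Flna: gatcactctgGccgctcttca
Hnrnpab: tcctgattttGccacgacctg
S100a6: gacttccgggGgcctctctcg
Eif4a2: ttagactgttGggggtgggta
Calr: ggccacttgtGgggcagccag
The next 5 are the deepest G>A sites at base runs, each standing before a run of A.
Cnbp: gaaaggggtgGaaaaaaccga
Atp2a2: gtttttaaaaGaaaaaaaact
Set: tgctctgtggGaaaaaagaaa
Prrx1: tcagtgacagGaaaaaaataa
Caprin1: aagtggcttgGaaaaaaaatg
The last 9 are mid-read sites, picked from the deepest and from those with the highest fractions. From MBT2 come 5 (Iqgap1 G>T, Ube2d3 G>A, Srsf1 A>T, Tnfrsf12a A>C and Selenof C>T) and from LM8 4 (Ywhae G>A, Cdc27 C>T, Dpf2 C>T and Scd1 C>T). Nedd4 and Lrrc59, also among the deepest mid-read sites of LM8, are not shown. Nedd4 stands before a run of A, and Lrrc59 in a stretch rich in G.
Iqgap1: ccataagcctGacttcccctc
Ube2d3: agcagcatccGttcttgttta
Srsf1: gagcgggatcAgattaccagg
Tnfrsf12a: gcacaagggaAtctcttgttc
Selenof: tagacaataaCttagttttgc
Ywhae: aggcatatgcGctgtcatttt
Cdc27: ggtgacaggcCtgcagttctt
Dpf2: tttccttgcaCgctagctagt
Scd1: ctatagccctCtggaaatgcc

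The median site was covered by 180 reads in MBT2 (quartiles 101 and 317) and 145 reads in LM8 (quartiles 79 and 272), summed over both libraries. Reads over these sites totalled 73794 and 79516 in the MBT2 libraries and 64432 and 61046 in the LM8 libraries. A median of 8 reads in MBT2 and 6 in LM8 carried the alternative base. The duplicates of a line did not differ detectably at any site after adjustment: a two-sided Fisher's exact test of the reads called 0 of the 568 MBT2 sites and 0 of the 573 LM8 sites (Benjamini-Hochberg over all listed variants of a line), where 0% of all 6361 and 0% of all 5445 variants were called. Without adjustment, 19 MBT2 sites (3.35%) and 16 LM8 sites (2.79%) passed 0.05, against 3.76% of all MBT2 variants and 3.89% of all LM8 variants. The lowest p-values of the exact test belonged to St3gal1, a sialyltransferase, in MBT2 (31 of 76 reads in library 1 and 12 of 77 in library 2, adjusted p = 0.644) and to Hipk1, a nuclear kinase, in LM8 (19 of 124 and 41 of 131 reads, adjusted p = 1).

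G>A on the RNA strand was the commonest change in both lines. It accounted for 302 sites in MBT2 (53.2%, 95% exact interval 49.0 to 57.3%) and 314 in LM8 (54.8%, 50.6 to 58.9%). C>T, the change that C-to-U editing would give, accounted for 58 sites in MBT2 (10.2%) and 57 in LM8 (9.95%). T>G was listed at 48 sites in MBT2 and 59 in LM8, and T>A at 41 sites in MBT2 and 61 in LM8. G>T differed most, with 43 sites in MBT2 (7.57%) and 10 in LM8 (1.75%). A>T was listed 24 times in each line, and the other 4 changes at 7 to 18 sites a line.

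**Figure D1:**
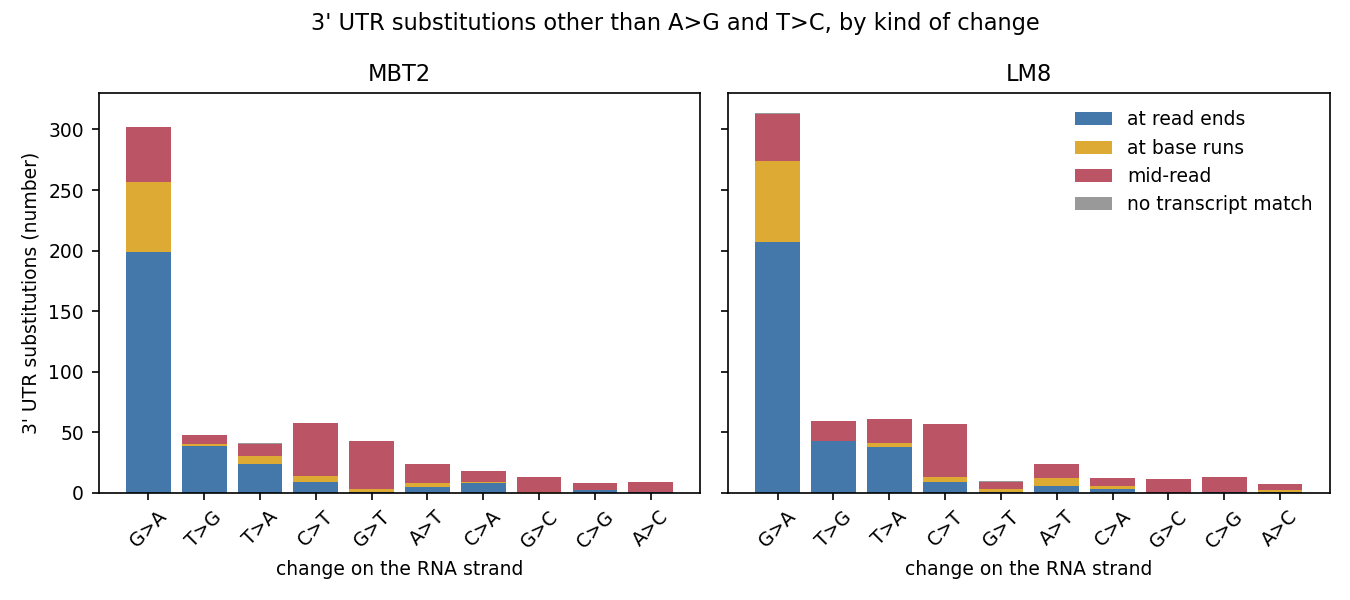
Number of 3′ UTR substitutions by change on the RNA strand in MBT2 (left) and LM8 (right), coloured by whether the new base lay at read ends, at base runs or mid-read. G>A has 302 sites in MBT2 and 314 in LM8, most of them at read ends, while the G>T bar reaches 43 in MBT2 and 10 in LM8.

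Of the C>T and G>A sites with a known gene strand, 83.9% were G>A in MBT2 (302 of 360) and 84.6% in LM8 (314 of 371). The lines did not differ detectably in this share (odds ratio 0.945 for MBT2 to LM8, two-sided Fisher's exact test, adjusted p = 1 over 4 effect categories). The same share in coding sequence was 74.9% in MBT2 and 69.7% in LM8, and in introns 53.5% and 51.9%. Among 3′ UTR sites not at read ends it was 67.8% in MBT2 (103 of 152) and 69.0% in LM8 (107 of 155). Base runs there held 58 G>A and 5 C>T sites in MBT2, and 67 and 4 in LM8. Mid-read sites were 45 G>A and 44 C>T in MBT2, and 39 and 44 in LM8. Among sites with a fraction of 20% or more the G>A share was 51.4% in MBT2 (19 of 37, interval 34.4 to 68.1%) and 43.3% in LM8 (13 of 30, 25.5 to 62.6%). At these higher fractions the interval included an even split between G>A and C>T in both lines.

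Over 50% of the sites in each line lay at read ends: 288 in MBT2 (50.7%, interval 46.5 to 54.9%) and 309 in LM8 (53.9%, 49.7 to 58.1%). Of all 1141 sites, 512 had the new base at a median of 1 base from the read end, 85 at 2 bases and 36 at 3 bases. The new base of these sites was read with a median base quality of 43 in both lines, against 31 in MBT2 and 32 in LM8 at mid-read sites. Reads with the new base aligned to the strand opposite to the gene in 95.4% of cases in MBT2 and 94.1% in LM8. Reads with the reference base at the same sites did so in 80.4% of cases in MBT2 and 80.2% in LM8. At mid-read sites, 53.7% of the reads with the new base were opposite to the gene in MBT2 and 53.3% in LM8.

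**Figure D2:**
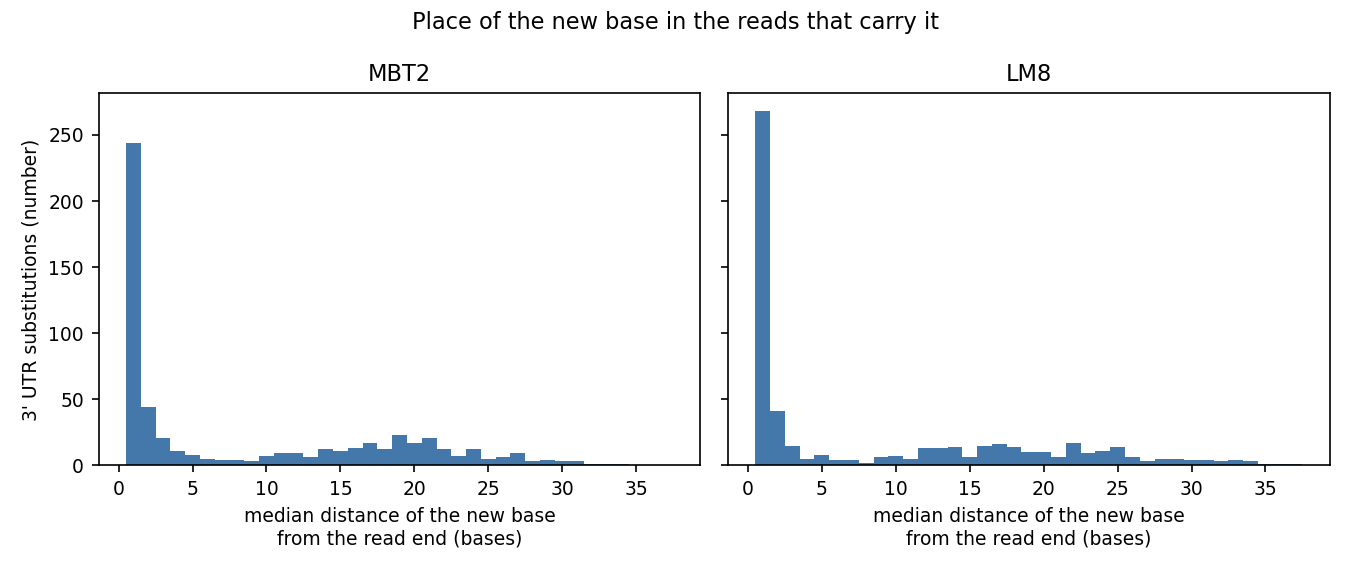
Number of 3′ UTR substitutions (vertical axis) by the median distance, in bases, of the new base from the end of the reads that carry it, in MBT2 (left) and LM8 (right). Over both lines the first bar holds 512 sites and the second 85, and the rest spread over the length of the read.

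The kinds of change at read ends were unequal. G>A sites lay there in 65.9% of cases in MBT2 and 65.9% in LM8, T>G sites in 81.3% and 72.9%, and T>A sites in 58.5% and 62.3%. C>T sites did so in 15.5% of cases in MBT2 and 15.8% in LM8, G>T sites in 2.33% and 10.0%, and none of the G>C sites (13 in MBT2 and 11 in LM8) was there. The base that followed was also unequal. Of the 396 G>A sites at read ends with all 21 bases of transcript sequence around them, 215 were followed by C (54.3%) and 153 by G (38.6%). Of all 480238 G in the 3′ UTRs with a listed site, 21.3% were followed by C and 24.5% by G. T>G sites at read ends were followed by G in 61 of 81 cases, and T>A sites in 35 of 60. The share of all T followed by G in these UTRs was not counted, so these 2 counts have no background beside them.

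The deepest read-end sites in MBT2 carried the new base in few reads. Scd2, a stearoyl-CoA desaturase, had T>A on chromosome 19 at position 44294072 (GRCm39), 2433 bases after the stop codon, in 0.570% and 1.12% of the reads of the 2 libraries, or 0.863% of 3013 reads. P4hb, a protein disulfide isomerase, had G>A on chromosome 11 at position 120451216, in 1.55% and 1.71% of reads. In LM8, S100a6, a calcium-binding protein, had G>A on chromosome 3 at position 90521657 in 2.52% and 1.62% of reads. Eif4a2, a helicase of translation initiation, had G>A on chromosome 16 at position 22932268 in 2.53% and 1.44% of reads. Each of these sites was seen in both libraries of its line at under 3%, and the sequences of P4hb and Eif4a2 show a run of G after the changed base. The median over read-end sites was 3.93% in MBT2 and 3.91% in LM8, and 1 of them in MBT2 and 0 in LM8 reached 20%. The exception was Nop58, a protein of box C/D small nucleolar ribonucleoproteins, whose T>A on chromosome 1 at position 59750667 was carried by 83.3% and 84.9% of reads.

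Of the read-end sites, some lay close to the annotated end of the UTR. They were within 100 bases of it in 19.2% of cases in MBT2 and 16.9% in LM8, against 7.58% and 3.51% of mid-read sites. Over all sites described here, at any place in the reads, the share was 13.0% in MBT2 and 10.8% in LM8. Over all A>G and T>C sites of 3′ UTRs, it was 13.6% in MBT2 and 18.2% in LM8. The share of read-end sites among A>G and T>C sites of 3′ UTRs was 51.4% in MBT2 and 59.8% in LM8. Among substitutions other than A>G and T>C elsewhere, it was 37.9% in MBT2 and 36.8% in LM8 for coding sequence, and 8.45% and 5.06% for introns.

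Sites at base runs numbered 77 in MBT2 (13.6%) and 86 in LM8 (15.0%), and G>A made up 58 of them in MBT2 and 67 in LM8. Over both lines, 126 of 611 G>A sites with a transcript sequence stood directly before at least 4 A (20.6%), where 0.955% of all G in these UTRs did. The median run of A was 7 bases, 117 of the 126 sites had another G before them, and 124 were not at read ends. The share was 19.4% in MBT2 (58 of 299) and 21.8% in LM8 (68 of 312).

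Cnbp, which encodes a zinc-finger nucleic acid-binding protein, carried the deepest of these sites in both lines, on chromosome 6 at position 87820876, 145 bases after the stop codon. Its A was seen in 2.03% and 1.17% of the reads of the MBT2 libraries, and in 1.25% and 1.23% of those of the LM8 libraries. Atp2a2, which encodes a calcium pump of the endoplasmic reticulum, had G>A on chromosome 5 at position 122594840 in 1.91% and 1.11% of reads in MBT2, and in 2.23% and 1.52% in LM8. The ranges of the lines overlapped at both genes. Set, a histone chaperone and phosphatase inhibitor, had G>A in 1.03% and 1.46% of the MBT2 reads. Prrx1, a transcription factor of mesenchymal cells, had G>A on chromosome 1 at position 163075304 in 0.397% and 0.565% of the LM8 reads, the lowest fraction of any site. The median over base-run sites was 4% in MBT2 and 4.29% in LM8, and the median base quality of the new base was 32 in both. By the length of the run beside the site, 11 sites stood at 4 copies of the new base, 7 at 5, 53 at 6, 35 at 7, 23 at 8, 10 at 9 and 24 at 10 copies, the most that the window shows.

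Mid-read sites numbered 198 in MBT2 (34.9%, interval 30.9 to 38.9%) and 171 in LM8 (29.8%, 26.1 to 33.8%). They held 102 of the 111 sites with a fraction of 20% or more in MBT2 and 53 of the 59 in LM8. Their median fraction was 21.7% in MBT2 (quartiles 4.84 and 32.8%) and 8.70% in LM8 (quartiles 4.55 and 22.3%). These values mix sites within the reads with sites close to their ends. Over both lines, with base-run sites included, 36 sites lay at 3 bases from the read end, 16 at 4, 16 at 5 and 9 at 6. The median fractions there were 3.83%, 3.66%, 5.38% and 4.72%. Among mid-read sites, C>T was at 44 in each line, G>A at 45 in MBT2 and 39 in LM8, and G>T at 40 in MBT2 and 6 in LM8.

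**Figure D3:**
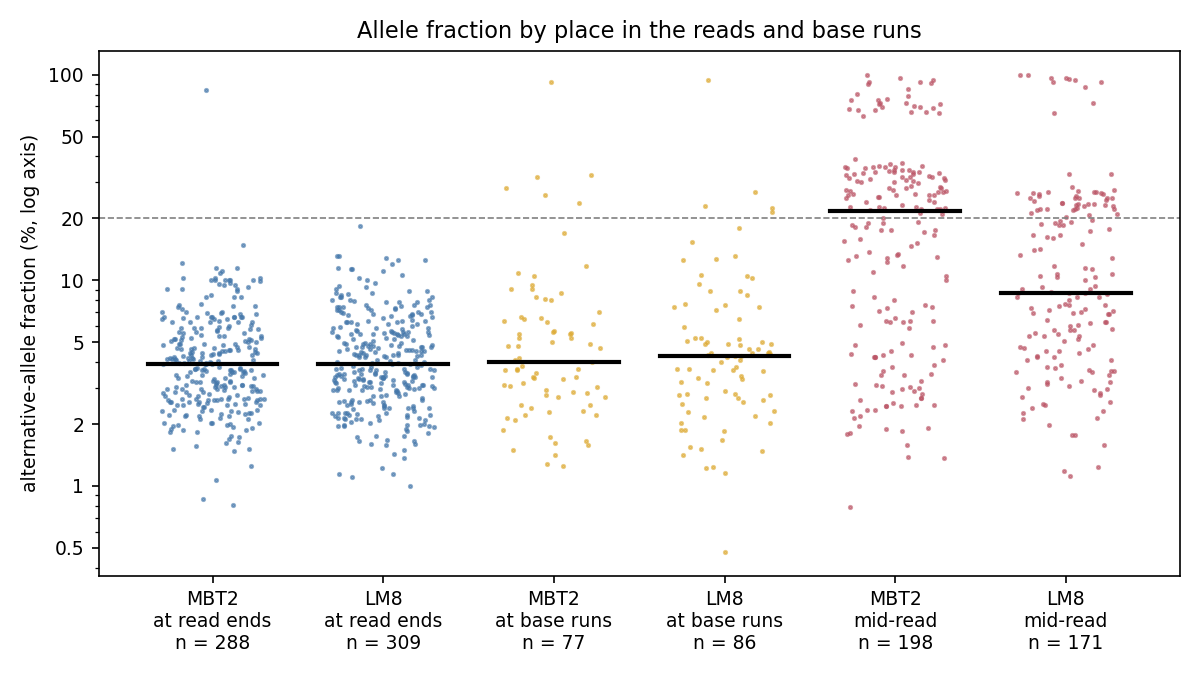
Alternative-allele fraction (percent, log axis) of each 3′ UTR substitution, by kind of site and line, with MBT2 left of LM8. Bars are medians (3.93%, 3.91%, 4%, 4.29%, 21.7% and 8.70% from left to right), and the dashed line marks 20%.

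Over all sites, 111 of 568 in MBT2 (19.5%, interval 16.4 to 23.05%) and 59 of 573 in LM8 (10.3%, 7.93 to 13.1%) had an allele fraction of 20% or more. The odds ratio of MBT2 to LM8 was 2.12 (two-sided Fisher's exact test over listed sites, adjusted p = 4.08e-05 over 6 effect categories). These tests compare the 2 lists, in which all sites of a line share its libraries, and hold no spread between libraries. The same classes in coding sequence reached 20% at 31.5% of sites in MBT2 and 10.9% in LM8, and A>G and T>C in 3′ UTRs at 6.73% and 2.42%. The median fraction was 4.81% and 4.84% in the MBT2 libraries and 4.17% and 4.55% in the LM8 libraries, with no overlap between the lines. The mean difference of these medians was 0.470 percentage points (exact permutation test over the 4 libraries, two-sided, p = 0.333, the smallest p that 2 against 2 libraries allow). No site in either line had a fraction between 40% and 60%, while 30 in MBT2 and 12 in LM8 were over 60%. A filter on sites scored as germline was applied before deposit, per the file headers, and its part in this gap was not tested. Of the sites over 60%, 4 of 30 in MBT2 and 7 of 12 in LM8 were in the germline resource used by the caller. Their median depth was 172.5 reads in MBT2 and 32.5 in LM8. Of the sites at 20% or more, 5 of 111 in MBT2 and 12 of 59 in LM8 were in that resource.

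The collapsed class C>A, which joins C>A and G>T, differed between the lines. It held 64 of 568 sites in MBT2 (11.3%), against 25 of 573 sites in LM8 (4.36%), an odds ratio of 2.78 (two-sided Fisher's exact test, adjusted p = 1.96e-04 over 30 class and effect category pairs). The other 4 classes did not pass Fisher's exact test: C>G (odds ratio 0.878, adjusted p = 0.914), C>T (0.935, 0.810), T>A (0.742, 0.413) and T>G (0.857, 0.810). Coding sequence had the same direction for C>A, at 131 of 730 sites in MBT2 and at 40 of 633 sites in LM8 (Fisher's exact test, odds ratio 3.24, adjusted p = 1.40e-09).

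The C>A class was followed by allele fraction and by strand. Of the sites at 20% or more, it held 40 of 111 in MBT2 (36.0%, interval 27.1 to 45.7%) and 7 of 59 in LM8 (11.9%, 4.91 to 22.9%). Of the sites under 10%, it held 13 of 411 in MBT2 (3.16%) and 15 of 463 in LM8 (3.24%). On the RNA strand, the class was G>T rather than C>A at 43 of 61 sites in MBT2 (70.5%, interval 57.4 to 81.5%) and at 10 of 22 in LM8 (45.5%, 24.4 to 67.8%). Among sites at 20% or more it was G>T at 32 of 38 in MBT2 (84.2%, 68.7 to 94.0%) and at 3 of 6 in LM8. Other classes were unequal by strand as well. T>G made up 48 of 57 T>G-class sites in MBT2 (84.2%) and 59 of 66 in LM8 (89.4%). Among sites not at read ends it was 9 of 17 in MBT2 and 16 of 22 in LM8. At 20% or more it was 3 of 8 in MBT2 and 4 of 6 in LM8. G>C made up 8 of 9 C>G-class sites at 20% or more in MBT2 and 4 of 10 in LM8. In coding sequence the G>T share was 72.5% in MBT2 (95 of 131) and 50% in LM8 (20 of 40). The strand share was examined after the counts were seen, and the difference between the lines was not tested.

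The G>T sites of MBT2 named next were each carried by most reads of both libraries. Iqgap1, a scaffold protein of the actin cytoskeleton, had G>T on chromosome 7 at position 80363394, 186 bases after the stop codon, in 88.9% and 91.0% of the reads of the MBT2 libraries (90.0% of 621 reads, interval 87.4 to 92.3%). Ptpn11, which encodes the phosphatase SHP2, had G>T on chromosome 5 at position 121271769 in 78.8% and 71.0% of reads. Fem1b, a substrate receptor of a ubiquitin ligase, had G>T on chromosome 9 at position 62700874 in 73.9% and 71.7% of reads. Imp4, a protein of the U3 small nucleolar ribonucleoprotein, had G>T in 80.0% and 77.8% of 57 reads in all, and Eps8l2, an actin regulator, had it in 68.5% and 81.2% of 123. None of these 5 sites was listed in LM8.

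Other changes with high fractions in MBT2 were in Parn, Tomm34, Ppib and Secisbp2l. Parn, a poly(A)-specific ribonuclease that removes poly(A) tails, had T>G in 95.8% and 89.3% of 52 reads, in a TG repeat, and this base was in the germline resource used by the caller. Tomm34, a co-chaperone, had G>A in 90.3% and 91.4% of 66 reads. Ppib, a prolyl isomerase, had T>G in 79.5% and 81.4% of 241 reads, and Secisbp2l had G>C in 73.3% and 80.3% of 157 reads.

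A second set of MBT2 sites was deep and lay between 29% and 40%. Ube2d3, a ubiquitin-conjugating enzyme, had G>A on chromosome 3 at position 135171424 in 38.5% and 39.5% of reads (39.0% of 1716, interval 36.7 to 41.4%). Srsf1, a splicing factor, had A>T on chromosome 11 at position 87941918 in 28.6% and 31.2% of reads (29.9% of 1804). Tnfrsf12a, the receptor of TWEAK, had A>C on chromosome 17 at position 23894701 in 33.7% and 33.9% of reads (33.8% of 1694). In each of these the duplicates were within 3 percentage points. Slc1a4, a transporter of neutral amino acids, had C>T and A>C at positions 20253104 and 20253106 of chromosome 11, 2 bases apart, both in 119 of 335 reads (35.5%).

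In LM8 the high fractions were fewer. Cdc27, a subunit of the anaphase-promoting complex, had C>T on chromosome 11 at position 104395089 in 76.2% and 69.8% of reads (73.1% of 197, interval 66.3 to 79.2%). Hjurp, the chaperone of the centromeric histone CENP-A, had C>T on chromosome 1 at position 88192844 in 66.5% and 64.1% of reads. Both were well above the other LM8 sites with at least 40 reads, the next of which was at 33.0%. Dpf2, a subunit of BAF chromatin remodelling complexes, had C>T on chromosome 19 at position 5947639 in 33.3% and 32.6% of reads. Ywhae, the 14-3-3 protein epsilon, had G>A on chromosome 11 at position 75655932 in 34.2% and 31.2% of reads, or 32.8% of 1511. The remaining 6 of the 10 highest, in ENSMUSG00000095041, Rif1, Ankfy1, Hjurp (C>G), Palld and Gnaq, lay at 27.0% to 29.6%.

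**Figure D4:**
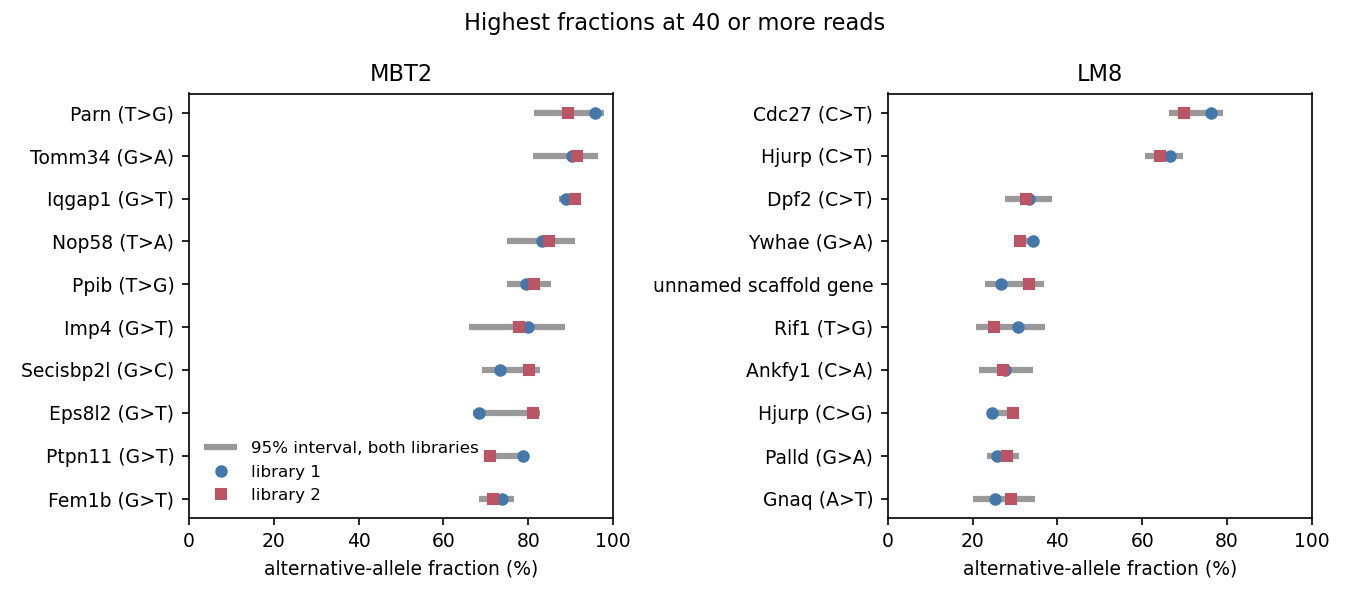
Alternative-allele fraction (percent) in library 1 and library 2 of the 10 sites with the highest fraction among those with 40 or more reads, in MBT2 (left) and LM8 (right). Grey bars are 95% exact intervals over both libraries, covering counting error only. The 10 MBT2 sites lie at 72.7% or more, and 2 of the 10 LM8 sites exceed 60%.

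C>T on the RNA strand was looked at by its neighbours, since APOBEC1, the enzyme of mammalian C-to-U editing, prefers C between A or U. Of the mid-read C>T sites, 15 of 44 in MBT2 (34.1%) and 8 of 44 in LM8 (18.2%) had A or T on both sides, where 35.9% of all C in these UTRs did. Selenof, a selenoprotein of the endoplasmic reticulum, had C>T between A and T on chromosome 3 at position 144302773, in 2.45% and 2.89% of reads in MBT2 (2.68% of 2539, interval 2.09 to 3.38%). Arf4, a small GTPase, had C>T in 0.832% and 0.754% of the MBT2 reads. Scd1, a stearoyl-CoA desaturase, had C>T between T and T on chromosome 19 at position 44384092, in 14.4% and 17.95% of reads in LM8. Of 22 genes listed as reported targets of C-to-U editing, 7 had a listed variant in MBT2 and 3 in LM8. App, Cmtm6 and Serinc1 had a site in MBT2 and Tmem30a in LM8. The change was C>T in Serinc1, T>A in Cmtm6 and G>A in App and Tmem30a.

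The high-fraction sites were unevenly spread over the genome in MBT2. Chromosomes 11, 9, 5 and 2, chosen after the counts were seen, held 64 of its 102 mid-read sites at 20% or more (62.7%) and 34.0% of all its sites. The same chromosomes held 16 of 53 in LM8 (30.2%) and 26.5% of all sites. Most genes had a single site: 476 of 517 in MBT2 and 500 of 533 in LM8. Hjurp had 5 sites in MBT2 and 3 in LM8, and every one of them was in the germline resource, as were 25 of the 568 MBT2 sites and 25 of the 573 LM8 sites overall. The 5 MBT2 sites of Hjurp lay between 15.1% and 22.1%, on reads numbering 236 to 555. The gene ENSMUSG00000095041, on an unplaced scaffold and with no strand in the annotation used, had 4 sites in MBT2 and 5 in LM8. Sh3glb1, which encodes endophilin B1, had 3 sites in each line, and they were the same 3 positions.

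Of all sites, 51 in 46 genes were listed in both lines, which is 8.98% of the MBT2 sites and 8.90% of the LM8 sites. G>A made up 42 of them, T>G and C>T 2 each, and T>A and C>G 1 each, and 3 were without a strand. Of the sites at base runs, 31.2% were shared in MBT2 and 29.1% in LM8. Read-end sites were shared in 6.60% of cases in MBT2 and 5.83% in LM8, and mid-read sites in 2.53% and 2.92%. Among A>G and T>C sites of 3′ UTRs, 10.3% in MBT2 and 14.0% in LM8 were shared. Among substitutions other than A>G and T>C in coding sequence, 4.52% in MBT2 and 5.21% in LM8 were shared.

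The fractions at shared sites were mostly low in both lines, with a median of 4% in MBT2 and 4.44% in LM8. Of the 51, 39 differed by 2 percentage points or less, and 22 were higher and 29 lower in MBT2. At fractions this low a larger gap has little room, and no background was set beside this count. By two-sided Fisher's exact tests of the reads, 1 site differed at an adjusted p under 0.05 and the same 1 without adjustment, where 7.3% of all 1261 shared variants were called with adjustment and 13.6% without. That site was C>G in Hjurp on chromosome 1 at position 88192706, 197 bases after the stop codon. Its G was in 13.9% and 16.3% of the reads of the MBT2 libraries and in 24.5% and 29.5% of those of the LM8 libraries, with no overlap (15.1% of 443 reads in MBT2 and 27.1% of 553 in LM8, Fisher's exact test, adjusted p = 2.07e-04). The call was lost without library 2 of each line. Brk1, a subunit of the WAVE actin regulatory complex, had G>A at 3.32% and 2.62% in MBT2 and 2.64% and 4.06% in LM8. Psmd7, a proteasome subunit, had G>A at 3.60% and 3.07% in MBT2 and 2.81% and 3.29% in LM8. Sdhd, a subunit of succinate dehydrogenase, had G>A at 2.33% and 2.97% in MBT2 and 2.21% and 1.31% in LM8. Col5a2, a fibrillar collagen chain, had G>A at 3.68% and 2.46% in MBT2 and 4.19% and 2.27% in LM8.

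**Figure D5:**
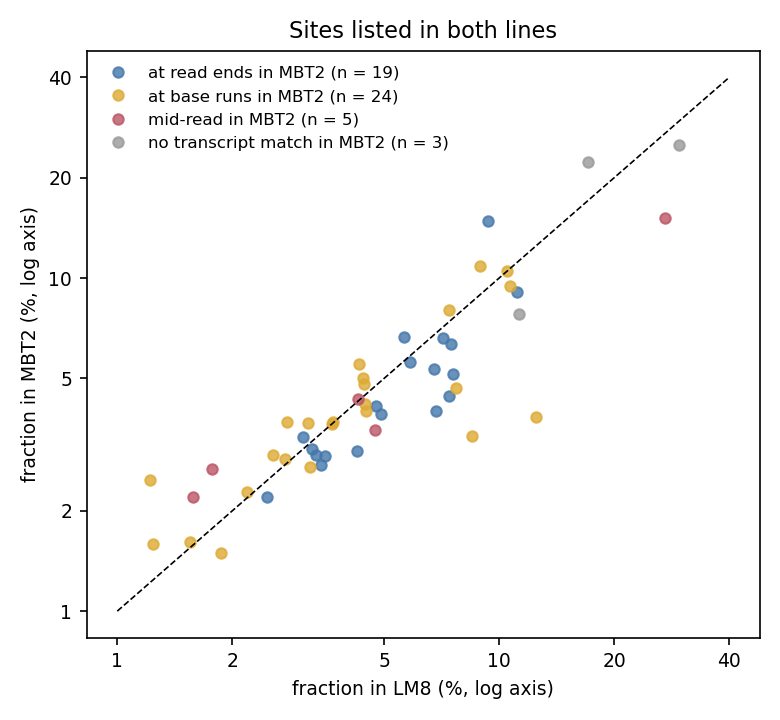
Allele fraction in MBT2 (vertical, percent, log axis) against LM8 (horizontal, percent, log axis) of the 51 sites listed in both lines, coloured by kind of site in MBT2. Most points lie near the dashed line of equal fractions, and the mid-read point far below it is Hjurp C>G, at 15.1% in MBT2 and 27.1% in LM8.

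The sites were set against 9 short motifs of 3′ UTRs in the 561 MBT2 and 565 LM8 windows with a transcript sequence. The polyadenylation signals AATAAA and ATTAAA were made by a substitution at 4 sites in MBT2 and 1 in LM8 and removed at 1 and 0. AATAAA covers 0.587% of all bases of these UTRs and ATTAAA 0.373%. Nop58, described above with 84.3% of 89 reads, gained an ATTAAA. Pura, a nucleic acid-binding protein, gained an ATTAAA by A>T in 26.4% and 28.7% of 341 reads in MBT2. Gm12184 lost an ATTAAA 10 bases before the annotated end of its UTR, by A>C in 24.0% and 29.8% of 97 reads in MBT2.

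The pentamer ATTTA, the core of AU-rich elements that destabilise messenger RNA, was made at 6 sites in MBT2 and 6 in LM8 and removed at 0 and 1. It covers 0.959% of all bases of these UTRs. Daam1, a formin, gained it by T>A beside a run of A in 86.7% and 95.8% of 39 reads in MBT2, and this base was in the germline resource. Gng12, a G protein subunit, gained it by G>A in 19.4% and 30.7% of 147 reads in LM8, and Slc44a1, a choline transporter, by T>A in 17.5% and 20.1% of 822 reads in LM8. In MBT2, Fst, Sfr1 and Pcgf3, and in LM8 Acsl3, gained it by G>A at read ends in front of a run of G, at 2.65% to 6.67% in MBT2 and 2.75% in LM8.
Fst: ttatttatttGgggggaaaac
Sfr1: tcattgatttGgggggcaaaa
Pcgf3: tttaagatttGgggggttaaa
Acsl3: ttggttatttGgggggctttt
The Pumilio motif TGTANATA was lost at 1 site in MBT2, in Ro60 (3 of 37 reads). Matches to microRNA seeds, taken from RefSeq mature sequences, changed at few sites. A match to miR-21a-5p was lost in Dpy19l1 and to miR-200b-3p in Bach1, both in LM8, and a match to miR-29a-3p was gained in Zfp740 and Ddx19b in MBT2, each at under 11%. No match to let-7a-5p or miR-17-5p was made or removed. Only the given letters were searched on the RNA strand, and a match is not a used site.

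Listed genes with a site were named by function. Of the cancer driver genes with any listed variant, 7 of 27 in MBT2 and 4 of 23 in LM8 had a site here, where 13.1% of all 3933 genes with a variant did in MBT2 and 15.3% of 3495 in LM8. In MBT2 these were Akt1, Cul3, Map2k4, Myc, Nf2, Ptch1 and Tgfbr2, with a median fraction of 3.10%. The sites of Cul3 and Nf2 lay at base runs and those of the other genes at read ends, so none was mid-read. In LM8 they were Nf1, Nras, Ptch1 and Vhl, with a median of 13.9%. There the sites of Nf1 and Nras were mid-read, that of Ptch1 lay at a base run and that of Vhl at read ends. Nras, a RAS GTPase, had C>T on chromosome 3 at position 102973737 in 20.9% and 29.5% of 128 reads, and Nf1, a negative regulator of RAS, had G>A in 25.6% and 20.5% of 82 reads.

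Chromatin regulators had a site in 4 of 27 genes in MBT2 and 5 of 26 in LM8. Arid1a, a subunit of BAF chromatin remodelling complexes, had G>A at a base run in 6.52% and 2.53% of reads in MBT2, and in 4.26% and 10.5% of reads in LM8. DNA repair genes had a site in 3 of 19 in MBT2 (Lig1, Mre11a and Ung) and 0 of 15 in LM8. Mre11a, a nuclease of double-strand break repair, had G>T in 13.3% and 28.1% of 62 reads in MBT2. Genes of RNA binding and 3′ end processing had a site in 4 of 21 in MBT2 and 6 of 26 in LM8. Ago3, an Argonaute protein, had C>A at a base run in 93.3% and 94.4% of 33 reads in LM8. Igf2bp2, which binds and stabilises messenger RNA, had G>C in 30.4% and 22.6% of 218 reads in LM8.

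Cell cycle genes had a site in 4 of 19 in MBT2 and 2 of 23 in LM8, and antigen presentation and interferon genes in 1 of 11 and 3 of 10. Osteoblast and mesenchymal genes had a site in 2 of 8 in MBT2 and 3 of 13 in LM8. Col5a1, a fibrillar collagen chain, had A>T in 33.8% and 32.1% of 487 reads in MBT2, and Runx2, the transcription factor of osteoblasts, had T>G at a read end in 1.31% and 2.86% of reads in LM8. The single epithelial or urothelial gene with a variant, in MBT2, had no site, no marker gene of other cell types had any listed variant, and of the housekeeping genes 0 of 9 in MBT2 and 0 of 4 in LM8 had a site. A gene can carry a listed site only where it is expressed and long enough in its UTR, which these counts do not correct for. The variant lists hold no expression values, so the cell type of the lines was not checked beyond these listed genes.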

How the data were processed

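Each line's 2 libraries were called jointly with Mutect 2.2 and no matched normal, filtered and limited to passing records with GATK 4.1.5.0, per the file headers (4.3.0 per the submitters' processing notes), and annotated with SnpEff 5.1d, database 105 of GRCm39, 1 effect per variant. The notes also name bcl2fastq 2.17.1.14, cutadapt 1.9.1 and STAR 2.7.9a. The deposited read counts per allele and library were summed per line (Python 3.11.15, scipy 1.17.1). Depth and intervals (exact Clopper-Pearson, 95%) cover counting error only, since amplified reads are not independent molecules. Positions are GRCm39, as deposited. Gene strand, UTR place and sequence came from GENCODE M21 (GRCm38), matched by transcript and distance from the stop codon, never by coordinate. Median read position, base quality and strand counts are the caller's own values.

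Fisher's exact tests with Benjamini-Hochberg adjustment (threshold 0.05) compared listed sites or reads and were tested on simulated data. Named sites were the 10 highest fractions at 40 or more reads and the 10 deepest per line, the deepest shared sites, genes with 3 or more sites and sites in 11 gene lists. Sites named for a motif, and the split by read end and base run, were chosen after their values were seen. Sites and lists were chosen with earlier results of these data known. Alternatives were the event filter, a depth minimum, another fraction limit, libraries left out, private sites, a replicate block and sites not at read ends.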

Additional observations from a re-analysis of the deposited data

How the results depend on the processing

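Of 84 values recomputed under an alternative, 68 were unchanged. For a test, this means that the direction and the side of the threshold were kept, whatever the size. For a count, it means that about the same size was kept. For a median, it means a move smaller than the standard deviation of the line's 2 library medians. These medians were 4.81% and 4.84% in MBT2 and 4.17% and 4.55% in LM8, so even small moves in MBT2 counted as changed. Without sites that share a region with another variant, 350 sites were left in MBT2 and 351 in LM8, with median fractions of 5.27% and 5.17%. The T>A class then passed Fisher's exact test (odds ratio 0.508, adjusted p = 0.0274) and the T>G class turned to an odds ratio of 1.04. The cause was not tested. With at least 20 reads in each library the median fractions were 4.48% in MBT2 and 4.41% in LM8. Over sites listed in 1 line only, the median in MBT2 was 4.92%, and with 1 library left out it was 4.93% to 4.98%. Without sites at read ends, an alternative chosen after seeing the data, 280 sites were left in MBT2 and 264 in LM8, with medians of 10.3% and 6.63%. The C>A class (Fisher's exact test, odds ratio 2.83, adjusted p = 0.00104) and the share at 20% or more (39.3% in MBT2 and 22.3% in LM8) still differed there. With a limit of 10%, the shares were 27.6% in MBT2 and 19.2% in LM8. Leaving out a library gave 0 to 1 shared sites called. The differences of library 1 from library 2 correlated between the lines at -0.0222 over 1261 shared variants. No variant differed between duplicates after adjustment, so this value cannot tell whether the replicate numbers pair the libraries. With the replicate block 1 shared site was called. Sites with a few alternative reads limit the fractions to wide intervals, and none of these sites had under 14 reads.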
